A study of Mus musculus with 7 samples.

Results

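The genes described here are 10 C-type lectin receptors that lie in 2 gene clusters of mouse chromosome 6. They were taken by symbol from the deposited count table, and all 10 were found among its 20343 complete rows. The Dectin-2 cluster holds Clec4a1, Clec4a3, Clec4a2, Clec4n, Clec4d and Clec4e, and the Dectin-1 cluster holds Clec12a, Clec9a, Clec1a and Clec7a. The study sequenced polyadenylated RNA of the apical myocardium from 4 untreated NSG-DR1 mice (strain NSG-DRB1*0101) and from 3 mice of the same strain taken 6 weeks after transfer of human CD4+ T cells. NSG mice carry the scid mutation of Prkdc and lack the interleukin-2 receptor gamma chain on a NOD background, so every heart, control or transferred, came from a host without its own T, B and natural killer cells but with its own myeloid cells. All animals also carried the human HLA-DR1 transgene. The source of the human cells and the age and sex of the mice are not given in the sources used here.

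C-type lectin receptors of myeloid cells are single-pass membrane proteins that bind sugars, lipids and debris of microbes and dying cells. Activating members signal through the kinase Syk and the adaptor Card9, either by a tyrosine motif of their own (Clec7a) or through the gamma chain of Fc receptors encoded by Fcer1g (Clec4e, Clec4d and Clec4n). Inhibitory members (Clec4a2 and Clec12a) carry an ITIM, a motif that recruits phosphatases such as the one encoded by Ptpn6. In the heart such receptors are known from resident macrophages, incoming monocytes, neutrophils and dendritic cells, whereas Clec1a is known mainly from endothelium.

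Since all of these genes but Clec1a are known from myeloid cells, the stretches before their start sites were searched for GAGGAA on both strands, the core letters of sites for PU.1, the ETS factor of the myeloid lineage. RefSeq promoters of build GRCm38.p6 were matched for 8 of the 10 genes, not for Clec4n and Clec1a, and the 250 bases before the farthest upstream start site that the promoter table holds were read. GAGGAA was present in 5 of 8 (Clec4a1, Clec4d, Clec4e, Clec7a and Clec12a, the last in a stretch inside the gene), against 23.1% of 27025 mouse promoters read the same way. The 4 whose stretch holds these letters and touches no annotated exon are shown 5′ to 3′ on the gene's strand, with GAGGAA or its reverse complement TTCCTC in capitals. They lie at chr6:122921598-122921847 (plus strand), chr6:123261857-123262106 (plus), chr6:123289872-123290121 (minus) and chr6:129472786-129473035 (minus).
Clec4a1: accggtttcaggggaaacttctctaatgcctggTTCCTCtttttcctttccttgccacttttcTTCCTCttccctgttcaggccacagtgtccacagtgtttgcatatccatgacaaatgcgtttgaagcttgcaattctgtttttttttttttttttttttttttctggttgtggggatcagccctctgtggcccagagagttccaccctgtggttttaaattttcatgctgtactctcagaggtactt
Clec4d: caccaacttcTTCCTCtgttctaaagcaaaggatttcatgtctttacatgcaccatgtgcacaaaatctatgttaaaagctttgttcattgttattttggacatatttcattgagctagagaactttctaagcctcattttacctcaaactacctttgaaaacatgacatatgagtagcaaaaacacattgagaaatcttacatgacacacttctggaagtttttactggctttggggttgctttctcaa
Clec4e: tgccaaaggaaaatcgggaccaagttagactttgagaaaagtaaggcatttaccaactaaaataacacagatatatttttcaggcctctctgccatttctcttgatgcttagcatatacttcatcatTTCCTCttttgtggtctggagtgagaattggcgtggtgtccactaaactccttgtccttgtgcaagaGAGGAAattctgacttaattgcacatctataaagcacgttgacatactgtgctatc
Clec7a: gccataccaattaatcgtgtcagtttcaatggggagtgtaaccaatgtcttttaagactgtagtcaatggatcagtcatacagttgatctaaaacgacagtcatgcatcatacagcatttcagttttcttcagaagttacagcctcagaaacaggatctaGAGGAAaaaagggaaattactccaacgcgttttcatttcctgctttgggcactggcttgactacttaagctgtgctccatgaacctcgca

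The letters began 217 and 187 bases before the start site of Clec4a1, 240 before that of Clec4d, 123 and 56 before that of Clec4e and 90 before that of Clec7a. TTGCNNAA, the letters of C/EBP sites, was found in 2 of the 8 stretches (Clec4e and Clec12a) and in 9.55% of all promoters. GAAANNGAA, a core of sites for interferon regulatory factors, was found in 0 of 8 and in 7.16% of all promoters. These matches describe letters only. Clec4a2 and Clec4a3, whose RNA is described next to that of Clec4a1, had none of the 3 motifs in this window, and the stretch read for Clec12a lies downstream of that gene's start in the count table and wholly in its annotated exons, so its matches are not in sequence before the gene.

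Levels are given as CPM, each count relative to its library's total in the part of the table used, with totals scaled by TMM (trimmed mean of M values) so that libraries share a common scale. Totals per heart ranged from 16402179 to 25190560 counts, and 3 counts equalled 0.115 to 0.189 CPM. This floor was taken as the highest level that 0 observed counts allow, and single genes can be counted below it. The labelled tissue was checked by the cardiomyocyte gene Tnnt2, which stood at 17490 to 20440 CPM over the 7 hearts. Groups were compared with edgeR's quasi-likelihood test over 7667 genes that passed a filter on low counts, with p-values adjusted by the Benjamini-Hochberg method and a threshold of 0.05. Of all tested genes 18, or 0.235%, passed it.

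Of the 10 receptor genes 8 passed the filter and 0 of these 8 passed the threshold. All 8 were above the filter's minimum of 0.485 CPM in every control heart, so none entered through the transferred hearts. Clec4e and Clec9a were under the filter. At an unadjusted p under 0.05, 5 of the 8 were higher and 0 lower in transferred hearts, against 7.17% and 5.27% of all tested genes. In 4 of the 8, each transferred heart lay above each control heart, which held for 5.99% of all tested genes. The median log2 fold change was 1.09 for the 8 genes and -0.002 for all tested genes. DESeq2 called 4 of the 8 (Clec4a1, Clec4a2, Clec4a3 and Clec4d) and 3.26% of all genes. With limma-voom 0 of the 8 and 0 of all genes passed, and 5 of the 8 were higher at an unadjusted p under 0.05, against 6.7% of all genes. The same 4 passed edgeR's threshold when transferred heart 3 was left out, when 140 genes passed in all.

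**Figure D1:**
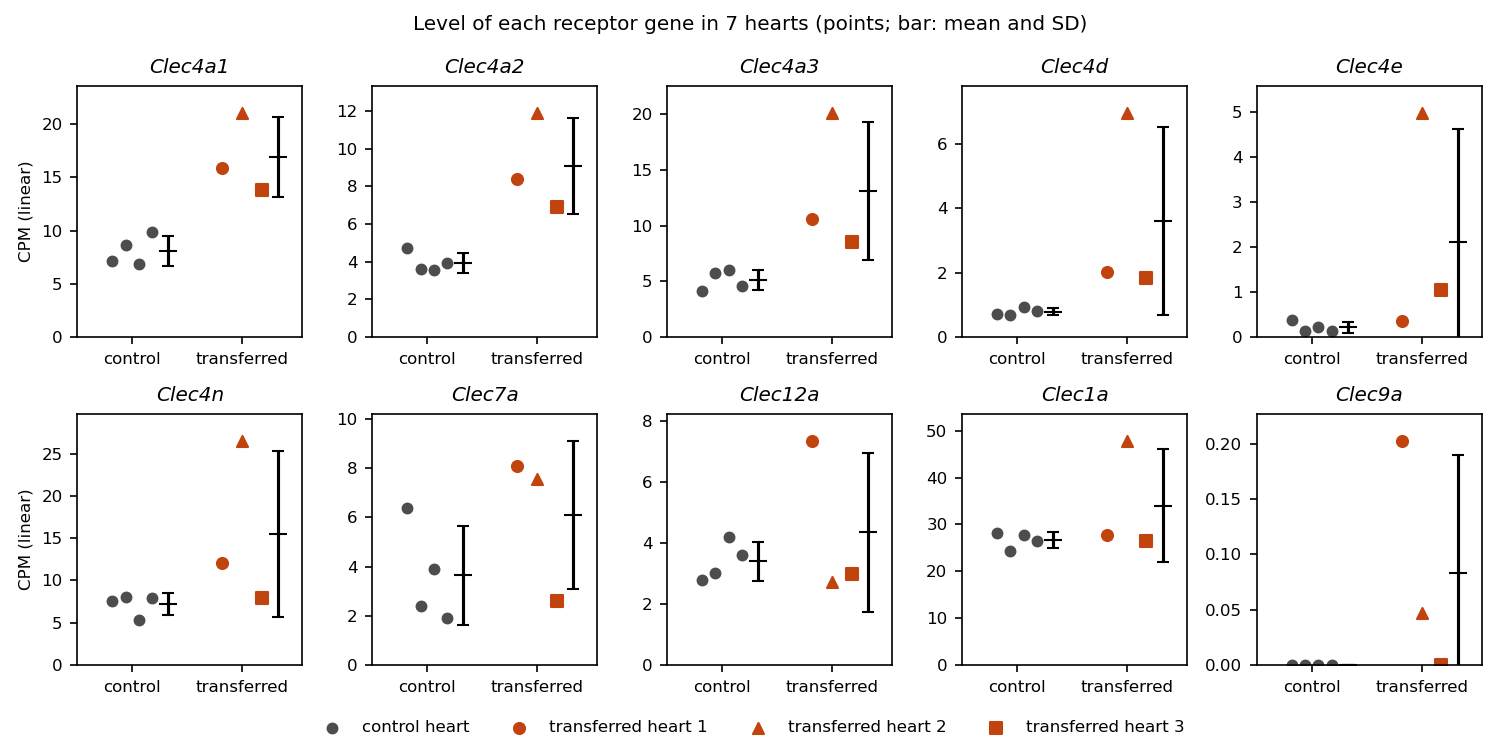
CPM on a linear axis that starts at 0 for each of the 10 genes, with each heart as a point and the mean and SD of each group as a bar, cut at 0 where the SD exceeds the mean. Clec4a1, Clec4a2, Clec4a3 and Clec4d show no overlap between the 4 control and 3 transferred hearts, and transferred heart 2 is the highest of the 7 hearts in 7 genes.

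Clec4a2 encodes DCIR, the ITIM-bearing inhibitory receptor of dendritic cells, monocytes and macrophages, and Clec4a1 and Clec4a3 encode its close relatives. All 3 were higher in every transferred heart than in any control heart, with mean ratios of 2.09 (Clec4a1), 2.30 (Clec4a2) and 2.55 (Clec4a3), but none passed the threshold over all genes.

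Clec4a1 (chromosome 6, 122921848 to 122934619, GRCm38, plus strand) stood at 7.10, 8.61, 6.83 and 9.84 CPM in control hearts 1 to 4 and at 15.9, 21.0 and 13.8 CPM in transferred hearts 1 to 3. The lowest transferred heart was thus above the highest control heart, and the spread in either group was small. Control hearts averaged 8.10 ± 1.40 CPM (SD, n = 4) and transferred hearts 16.9 ± 3.71 CPM (SD, n = 3). The log2 fold change came to 1.07 (SE 0.19), and the 95% interval ran from 0.65 to 1.48 (edgeR adjusted p = 0.0546).

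Clec4a2 (123122690 to 123143999, plus strand) stood at 4.72, 3.61, 3.57 and 3.91 CPM in control hearts and at 8.41, 11.9 and 6.92 CPM in transferred hearts. The groups did not overlap, and control hearts spanned a 1.32-fold range. Its log2 fold change came to 1.20 (SE 0.22, edgeR adjusted p = 0.0572). Its deposited counts were fractional in 5 of 7 hearts. Of its distinct 75-base words in the GENCODE transcripts, the length of a read, 3.24% also occur in another gene, namely Clec4a4 or Clec4b1. Over all control hearts Clec4a4 had 16.3 counts and Clec4b1 20, against 336 for Clec4a2. Over all transferred hearts they had 21.5 and 35.5, against 560 for Clec4a2, so the sums for these neighbours were low.

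Clec4a3 (122952515 to 122969878, plus strand) stood at 4.18, 5.77, 5.99 and 4.61 CPM in control hearts and at 10.6, 20.1 and 8.55 CPM in transferred hearts. Again no transferred heart fell within the control range, while transferred heart 2 stood well above the other 2. Its log2 fold change came to 1.34 (SE 0.28, edgeR adjusted p = 0.0829). Clec4a1 and Clec4a3 share none of their 75-base words with another gene.

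The source names take 2 forms, and whether these mark a batch is not given. Control heart 1 and transferred heart 1 have names that start with letters, and the log2 ratio between them was 1.16 for Clec4a1, 0.83 for Clec4a2 and 1.34 for Clec4a3. In the 5 hearts whose names start with a number the log2 fold changes were 1.06, 1.36 and 1.40, with edgeR adjusted p of 0.128, 0.112 and 0.172. The 18 alternatives gave adjusted p-values from 5.94e-05 to 0.198 for Clec4a1, from 0.000194 to 0.221 for Clec4a2 and from 0.000735 to 0.234 for Clec4a3. Without transferred heart 3, the lowest of its group in all 3 genes, each passed the threshold, with edgeR adjusted p of 0.028, 0.0235 and 0.0297.

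The activating receptors of the Dectin-2 cluster were more uneven between transferred hearts. Clec4d (MCL), a receptor for mycobacterial glycolipids that pairs with Clec4e, had the highest log2 fold change of the 8 tested genes. Clec4e (Mincle), which binds mycobacterial cord factor and a protein released by dead cells, was near the floor in control hearts. Clec4n (Dectin-2), a receptor for fungal mannans, was the most abundant member of this cluster per length in 3 of 4 control hearts.

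Clec4d (123262107 to 123275268, plus strand) stood at 0.729, 0.689, 0.921 and 0.820 CPM in control hearts, from 13 to 24 counts each, and at 2.03, 6.96 and 1.83 CPM in transferred hearts, from 37 to 148.5 counts. The groups did not overlap, and transferred heart 2 was far above the other transferred hearts. For Clec4d the log2 fold change came to 2.18 (SE 0.48), and the 95% interval ran from 1.11 to 3.25 (edgeR adjusted p = 0.102, with 0.00229 to 0.307 over the alternatives). Without transferred heart 2 it was 1.28 (edgeR adjusted p = 0.296), and without transferred heart 3 Clec4d passed the threshold (edgeR adjusted p = 0.0391).

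Clec4e (123281789 to 123289871, minus strand) had 8, 3, 6 and 2 counts in control hearts and 7, 106 and 21 counts in transferred hearts. In CPM these were 0.389, 0.129, 0.230 and 0.126 against 0.355, 4.99 and 1.04, so transferred heart 1 lay within the control range. Transferred heart 2 alone held 106 of the 134 counts of its group. The difference of mean CPM was 1.91 (exact two-sided permutation p = 0.0571, unadjusted, where the smallest p that 35 regroupings of 7 hearts allow is 0.0286). Without transferred heart 2 the difference was 0.477 CPM.

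Clec4n (123229843 to 123247024, plus strand) stood at 7.59, 8.09, 5.26 and 7.95 CPM in control hearts and at 12.0, 26.5 and 7.91 CPM in transferred hearts. Transferred heart 3 fell within the control range, and transferred heart 2 was the highest of all 7. With total-count scaling in place of TMM, transferred heart 3 came to lie above the control range. The log2 fold change came to 1.11 (SE 0.37, edgeR adjusted p = 0.278), and without transferred heart 2 it was 0.47 (edgeR adjusted p = 0.612).

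**Figure D2:**
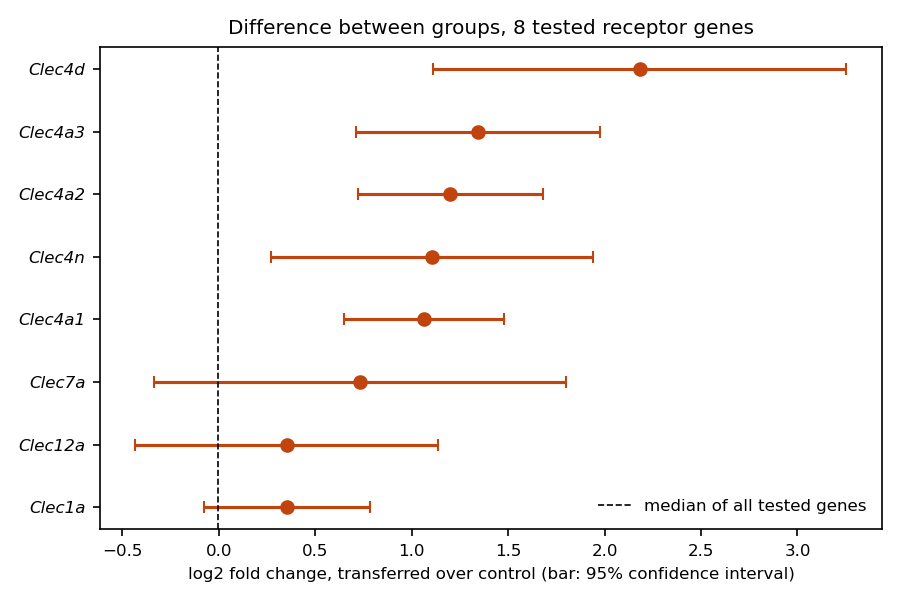
Log2 fold change of transferred over control hearts with its 95% confidence interval for the 8 tested genes, in order of size. The intervals of the 5 tested genes of the Dectin-2 cluster lie above the median of all tested genes (dashed line, -0.002), while those of Clec7a, Clec12a and Clec1a reach below it.

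The Dectin-1 cluster showed no group difference beyond the spread between hearts. Clec7a (Dectin-1), the receptor for fungal beta-glucan, spread widely among control hearts. Clec12a (MICL), an inhibitory receptor for uric acid crystals on myeloid cells, was high in 1 transferred heart. Clec1a (MelLec), a receptor for fungal melanin, was the most abundant of the 10 genes per length in every control heart.

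Clec7a (129461591 to 129472785, minus strand) stood at 6.37, 2.41, 3.92 and 1.89 CPM in control hearts and at 8.10, 7.57 and 2.62 CPM in transferred hearts. Control hearts spanned a 3.36-fold range, against 1.44-fold for Clec4a1, and transferred heart 3 lay inside it. Its log2 fold change came to 0.73 (SE 0.47), and the 95% interval ran from -0.33 to 1.80 (edgeR adjusted p = 0.588). Between the 2 hearts with letter prefixes the log2 ratio was 0.35. In the 5 other hearts the log2 fold change was 0.89 (edgeR adjusted p = 0.461), and it was 0.48 without transferred heart 1 and 1.14 without control heart 1.

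Clec12a (129349783 to 129365303, plus strand) stood at 2.77, 3.01, 4.18 and 3.60 CPM in control hearts and at 7.34, 2.73 and 2.96 CPM in transferred hearts. Only transferred heart 1 exceeded the control range, and transferred heart 2, the highest heart for 7 of the 10 genes, was the lowest of all 7 here. The log2 fold change came to 0.35 (SE 0.35), and the 95% interval ran from -0.43 to 1.14 (edgeR adjusted p = 0.743). Between the 2 hearts with letter prefixes the log2 ratio was 1.41, and in the 5 other hearts the log2 fold change was -0.33 (edgeR adjusted p = 0.625). Without transferred heart 1 it turned to -0.25.

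Clec1a (129426684 to 129452000, minus strand) stood at 28.1, 24.4, 27.6 and 26.4 CPM in control hearts and at 27.7, 47.9 and 26.4 CPM in transferred hearts. Transferred hearts 1 and 3 were within the control range and transferred heart 2 was far above it. The log2 fold change came to 0.35 (SE 0.19), and the 95% interval ran from -0.08 to 0.78 (edgeR adjusted p = 0.520), and it was 0.02 without transferred heart 2. Clec1a overlaps Clec12b on the same strand, and both had fractional counts in 3 of 7 hearts. The summed level of 11 endothelial markers was 2866 to 3111 CPM in control hearts and 2835 to 3372 CPM in transferred hearts, with Fabp4 and Kdr the largest parts. Among these markers Vwf stood at 90.9 to 138 CPM in control hearts and at 177, 381 and 159 CPM in transferred hearts, highest in transferred heart 2 as Clec1a was.

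Clec9a (129408862 to 129424764, plus strand) encodes DNGR-1, a receptor for actin filaments of dead cells and a marker of type 1 conventional dendritic cells. It had 0 counts in each control heart, which allows up to 0.115 to 0.189 CPM. It had 4, 1 and 0 counts in transferred hearts 1 to 3 (exact two-sided permutation p = 0.143, unadjusted). A difference was not detectable at this depth, and 3.23% of its 75-base words also occur in Clec1b. Clec1b stood at 14.3, 9.08 and 0.395 CPM in transferred hearts 1 to 3 and at 0.379 to 2.88 CPM in control hearts. Whether reads of Clec1b were counted for Clec9a was not tested.

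Per kilobase of combined exons, the control hearts ranked the genes in the order Clec1a (mean 8.15 CPM per kilobase, SD 0.506, n = 4), Clec4n (5.80, SD 1.06), Clec4a1 (5.20, SD 0.900), Clec4a3 (3.86, SD 0.660), Clec7a (0.828 to 2.79 over the 4 hearts), Clec12a (1.48, SD 0.275), Clec4a2 (1.41, SD 0.189), Clec4d (0.591, SD 0.0774), Clec4e (0.0603, SD 0.0340) and Clec9a at 0. This order is that of the means. Clec7a stood above Clec12a in only 1 of the 4 control hearts, control heart 1. The ranges of neighbours overlapped between Clec4n and Clec4a1, Clec4a1 and Clec4a3, Clec7a and Clec12a, and Clec12a and Clec4a2. Clec1a was highest in all 4 control hearts, whereas the highest gene was Clec4a1 in transferred hearts 1 and 3 and Clec4n in transferred heart 2. The summed level of the 6 Dectin-2 cluster genes was 22.8 to 27.3 CPM in control hearts and 49.2, 91.5 and 40.1 CPM in transferred hearts. Within that sum per kilobase, Clec4e and Clec4d made up 0.191% to 0.665% and 2.83% to 4.56% in control hearts, and 0.302% and 4.68% in transferred heart 1, 2.26% and 8.58% in heart 2 and 1.11% and 5.31% in heart 3.

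**Figure D3:**
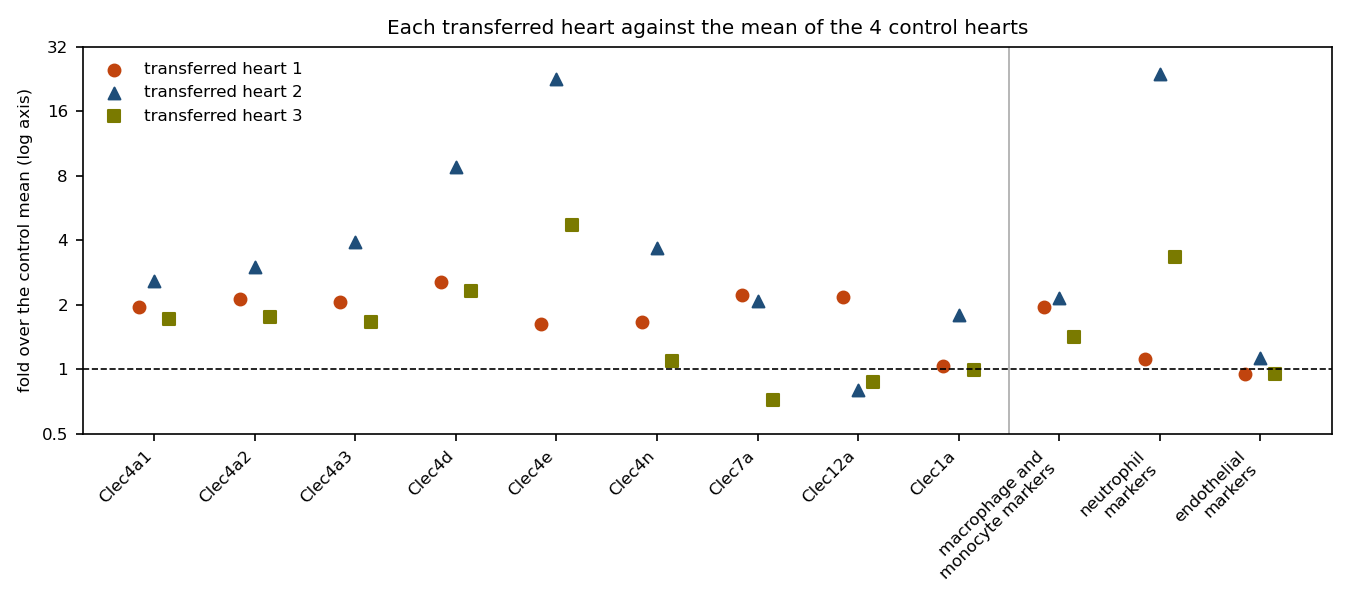
Level of each transferred heart divided by the mean of the 4 control hearts, on a log axis, for the 9 genes with counts in control hearts and, to the right of the grey line, for the summed CPM of 3 marker lists. Transferred heart 2 stands 22.8-fold over the control mean for Clec4e and 23.8-fold for the neutrophil markers, while the sum of the macrophage and monocyte markers, most of it from abundant genes such as C1qa, C1qb, C1qc and Mrc1, lies between 1.42-fold and 2.16-fold.

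Markers of other cell types were read beside these genes. In tissue RNA a change in the number of cells and a change in RNA per cell cannot be told apart. Of the 24 macrophage and monocyte markers listed, 14 were in the table and tested, 14 of these had a positive log2 fold change (median 0.90) and 2 rose past the threshold. All 14 were higher at an unadjusted p under 0.05, against 7.17% of all tested genes. Without overlap between groups 12 were higher, against 5.99% of all tested genes. The 2 past the threshold were C1qb, a complement component (log2 fold change 0.98, edgeR adjusted p = 0.0384), and the mannose receptor Mrc1. Mrc1 is a C-type lectin itself but on another chromosome (0.77, edgeR adjusted p = 0.0384). Plac8 followed with 3.15 (edgeR adjusted p = 0.0546). The count of 2 was 0 with the source-name prefix as a covariate, without both letter-prefix hearts, with limma-voom and without any single heart other than transferred heart 3, where it was 10, and it was 13 with DESeq2. The summed level of the 14 was 560 to 842 CPM in control hearts and 1346, 1483 and 972 CPM in transferred hearts. Single markers of the list differed in size, from a log2 fold change of 0.70 for Laptm5 to 3.15 for Plac8. Fcgr1 stood at a mean of 6.69 CPM in control hearts and at 27.4, 22.9 and 9.29 CPM in transferred hearts, and Plac8 at 0.773 against 10.3, 8.47 and 1.98 CPM.

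Of 14 neutrophil markers listed, 7 were in the table, 5 were tested and 0 passed edgeR's threshold, with 5 at an unadjusted p under 0.05 and 4 called by DESeq2. Cxcr2, S100a8 and Csf3r had log2 fold changes of 3.77, 4.07 and 1.73. Their summed level with the other markers was 8.94 to 12.1 CPM in control hearts and 12.2, 260 and 36.7 CPM in transferred hearts. In transferred heart 2, S100a8 (72.3 CPM) and S100a9 (138 CPM) made up most of that sum, while Csf3r stood at 22.9 CPM against a control mean of 3.33 CPM. Transferred heart 2 was the highest for these markers, as it was for 7 of the 10 receptor genes and for the summed macrophage markers. Transferred heart 1 was close to the control range for the neutrophil markers and within it for Clec4e. Without transferred heart 2 Clec4d was still higher in each transferred heart than in each control heart. The part of either cell type in the receptor genes' difference was not tested.

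Beside 1000 CPM of the summed macrophage and monocyte markers, a measure chosen after the values were seen, 0 of the 10 genes had groups without overlap. Of all tested genes 0.196% were higher and 64.1% lower without overlap on this scale, so a count of 0 higher is near the share of all genes. Clec4a1 came to 10.5 to 12.9 CPM in control hearts and 11.8 to 14.2 CPM in transferred hearts on this scale. Clec4a2 came to 4.65 to 6.99 against 6.25 to 8.03, and Clec4a3 to 5.47 to 10.7 against 7.86 to 13.6. Clec4d came to 0.974 to 1.64 against 1.51, 4.70 and 1.88 in transferred hearts 1 to 3. Clec7a, Clec12a and Clec1a had lower means in transferred hearts on this scale, from 5.57 to 4.61, from 5.09 to 3.45 and from 39.8 to 26.7. The marker sum itself was 1.42-fold to 2.16-fold over its control mean in transferred hearts. A gene that rose less is lower on this scale by construction, so these values say only that the 3 genes rose less than the markers. Leaving out transferred heart 1 separated the groups in 4 genes (Clec4a1, Clec4a2, Clec4d and Clec4e), leaving out control heart 3 in Clec4d, and leaving out transferred heart 3 in Clec9a. With those hearts left out, 0.743%, 0.509% and 0.548% of all tested genes were higher without overlap on this scale.

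**Figure D4:**
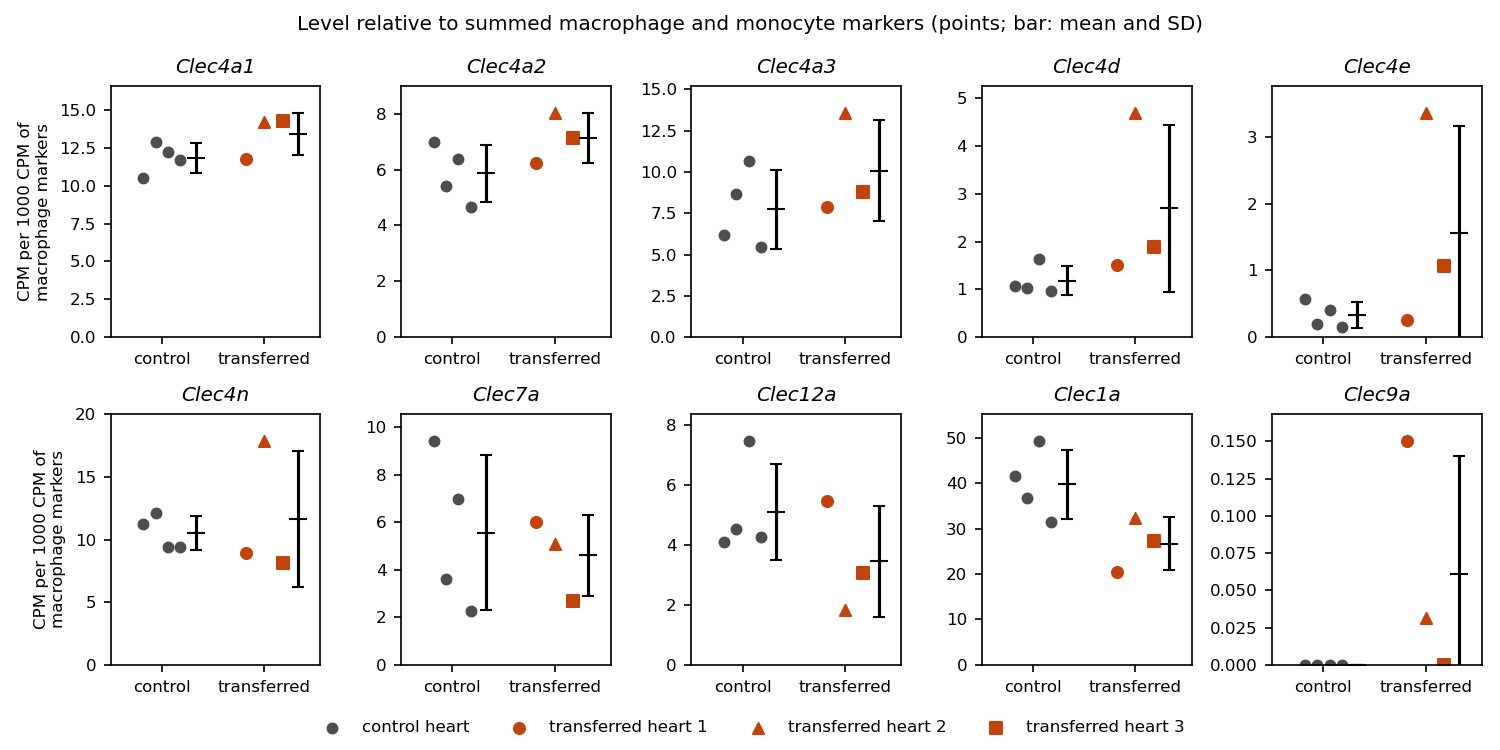
Level of each gene per 1000 CPM of the summed macrophage and monocyte markers, on linear axes from 0, with each heart as a point and the mean and SD as a bar, cut at 0 where the SD exceeds the mean. The groups overlap in all 10 panels, with Clec4a1 at 10.5 to 12.9 in control and 11.8 to 14.2 in transferred hearts.

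Of the dendritic cell list 4 genes were tested and 0 passed edgeR's threshold (2 at an unadjusted p under 0.05, 1 called by DESeq2), with Kmo at a log2 fold change of 1.43, Itgax at 1.85 and Siglech at -0.58. The dendritic cell genes Flt3 and Batf3 were at or under 0.470 CPM in every heart. Of 11 tested endothelial genes 1 passed, Aplnr, a receptor for apelin, which fell (-0.91, edgeR adjusted p = 0.0384), and Tie1 and Vwf stood at -0.28 and 1.17. The count of 1 was 0 with the prefix covariate, without both letter-prefix hearts, with limma-voom, without any one control heart and without transferred heart 2. Of the lymphoid list 3 genes were tested and 0 passed with edgeR or DESeq2 (1 at an unadjusted p under 0.05 with edgeR), with Cd247 at -1.06, Cd28 at -0.13 and Cd4 at 0.35, and the natural killer cell genes Ncr1 and Klrb1c had 0 counts in all 7 hearts. None of the 6 cardiomyocyte, 7 fibroblast and 3 mast cell or basophil genes tested passed with edgeR, with 0, 0 and 3 at an unadjusted p under 0.05 and 0, 0 and 1 called by DESeq2. Of the genes with the smallest p-values there, Tnnt2, Tnni3 and Myl2 had log2 fold changes of 0.13, 0.08 and 0.04. Those of Fn1, Col5a2 and Dpt were 0.32, -0.24 and 0.11, and those of Kit, Cpa3 and Hdc were -0.75, -1.36 and 0.78.

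The machinery beneath the receptors was read from a list of 28 genes, of which 18 were in the table and tested and 0 passed edgeR's threshold, with 7 at an unadjusted p under 0.05, all higher. DESeq2 called 5 of them, and edgeR called 2 with total-count scaling and 3 with all genes of at least 1 count. Fcer1g, the partner chain of Clec4d, Clec4e and Clec4n, stood at 14.9 to 16.9 CPM in control hearts and at 34.8, 34.0 and 22.3 CPM in transferred hearts, without overlap. Its log2 fold change came to 0.93 (SE 0.16, edgeR adjusted p = 0.0515). Tyrobp, the other such adaptor of myeloid cells, was higher by 0.76 on the log2 scale (edgeR adjusted p = 0.128). Fgr, a tyrosine kinase typical of myeloid cells, was higher by 2.09 on the log2 scale (edgeR adjusted p = 0.102).

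Ptpn6, the phosphatase recruited by ITIMs, stood at 9.25 to 11.4 CPM in control hearts and at 16.1, 20.3 and 14.3 CPM in transferred hearts (log2 fold change 0.67, edgeR adjusted p = 0.108). Card9, the adaptor downstream of Syk, overlapped between groups at 2.02 to 3.19 CPM against 2.58, 3.86 and 4.05 CPM (log2 fold change 0.43, SE 0.26, edgeR adjusted p = 0.562). Its partner Bcl10 had a log2 fold change of 0.004. Syk lies outside the part of the table used and is not analysed here.

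Of 19 genes listed as outputs of receptor signalling, 11 were in the table, 6 were tested and 0 passed edgeR's threshold, with 4 at an unadjusted p under 0.05, all higher, and 3 called by DESeq2. The neutrophil chemokine Cxcl1 stood at 0.694 to 1.15 CPM in control hearts and at 1.06, 11.9 and 5.04 CPM in transferred hearts, again highest in transferred heart 2. The log2 fold change was 2.55 for Cxcl1, 0.59 for the inflammasome adaptor Pycard and 1.86 for Il1b, with edgeR adjusted p of 0.165, 0.182 and 0.221. Transferred heart 1 overlapped the control range for Cxcl1, as it did for Clec4e.

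Of 22 lectin receptors encoded elsewhere, 21 were in the table, 16 were tested and 1, Mrc1, passed with edgeR, against 5 with DESeq2 and 0 with limma-voom or the prefix covariate. Clec5a, an activating receptor on another part of chromosome 6, stood at 4.05 to 5.35 CPM in control hearts and at 9.32, 10.1 and 6.87 CPM in transferred hearts (log2 fold change 0.94, edgeR adjusted p = 0.077). Sele, the endothelial selectin, was higher by 2.41 on the log2 scale (edgeR adjusted p = 0.161).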

How the data were processed

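The authors deposited one table of counts per gene, not normalized. It gives positions in GRCm38, and GRCm38.p6, cutadapt 2.5, STAR 2.7.2b and featureCounts 1.6.4 are named in the submitters' processing notes, with no role or order. Of the deposited values 4.63% are fractional, so they were treated as estimated counts and rounded. The table used holds chromosomes 1 to 7 and the start of chromosome 8, and 1 unfinished row was left out. Other genes are not analysed here. The series text gives paired reads of 75 nt, and column totals cover only the chromosomes used. Floors allow for counting error alone, because amplified reads that carry no molecular tag may copy one another.

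Groups came from the treatment in the labels. Genes were filtered with filterByExpr, scaled by TMM and tested across all genes with the quasi-likelihood test of edgeR 4.0.16 with robust estimation (R 4.3.3). The procedure was tested on simulated counts. Standard errors were taken from the log2 fold change and its F statistic. Alternatives used DESeq2 1.42.0, limma 3.58.1, other scalings and filters, a covariate for the source-name prefix and left-out hearts. All 10 receptor genes are named. From each other list the genes past the threshold and the 3 with the smallest p are named, with Fcer1g, Tyrobp, Card9 and Ptpn6. One gene that this rule names is not reported here. Further genes were named after their values were seen (Clec12b, Clec4a4, Clec4b1, Clec1b, Bcl10, Ncr1, Klrb1c, Klra8, Klra9, Flt3, Batf3, Clec2d, Fcgr1, Laptm5, C1qa, C1qc, S100a9, Fabp4 and Kdr). The receptor genes and lists were chosen with earlier results of these data known. Reads of NOD-derived mice were counted on the reference genome, which is of C57BL/6J, and the effect of strain differences on the levels was not tested.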

Additional observations from a re-analysis of the deposited data

Results flagged for a closer look

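Among the 4 control hearts, control heart 3 stood apart for Clec4n, at 5.26 CPM against 7.59 to 8.09 CPM in the other control hearts. The gap to its nearest neighbour on the log2 scale took up 0.850 of the group's range. The same check was made for 9 of the 10 genes, and chance marks about 1 in 20 such groups.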

How the results depend on the processing

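The number of receptor genes past the threshold, 0 in the planned test, was 1 with total-count scaling (Clec4a1), 4 with all genes of at least 1 count, 4 with DESeq2, and 0 to 4 when single hearts were left out. The 4 genes were Clec4a1, Clec4a2, Clec4a3 and Clec4d each time. Over all genes the count of 18 (10 higher, 8 lower) became 35 with total-count scaling (26 higher, 9 lower), 81 with all genes of at least 1 count (66 higher, 15 lower), 250 with DESeq2 (190 higher, 60 lower), 0 with limma-voom, 0 with the prefix covariate, 0 without both letter-prefix hearts, and 0 to 140 when single hearts were left out (140 without transferred heart 3, 27 without transferred heart 1, 1 without control heart 3 and 0 without any other). At an unadjusted p under 0.05 there were 954 genes in the planned test and 907, 973 and 1054 in those 3 fits with 0. The listed genes past the threshold, 3 in all lists, became 8, 11, 32, 0, 0 and 0 under the same settings in that order, and 0 to 17 when single hearts were left out. Over all 10 receptor genes, tested or not, the count without overlap was 4 in all hearts. It ranged from 4 to 7 when single hearts were left out. The 7 without transferred heart 3 included Clec9a, with 0 counts in control hearts and 4 and 1 in transferred hearts 1 and 2. The 5 without control heart 1 or transferred heart 1 included Clec4e. Both genes were under the filter of the planned test. The share of tested genes without overlap, which leaves out genes under the filter, rose from 5.99% to between 6.94% and 12.0%. Relative to macrophage markers the count was 0 in all hearts and 0 to 4 with single hearts left out. The median log2 fold change of the 8 tested genes ranged from 0.74 (without transferred heart 2) to 1.28 (without transferred heart 3) over the 18 alternatives. Clec12a turned to -0.33 without both letter-prefix hearts and ranged from -0.25 to 0.60 when single hearts were left out. The other 7 tested genes kept their direction in each of the 18 alternatives. What caused such shifts was not tested. Low counts limit Clec4e, Clec9a and, in control hearts, Clec4d. No paired analysis was possible because the groups came from different mice. Their labels share only 1 number between the groups, which does not by itself make a pair.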

Other observations

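Of 39 further lectin genes listed from the natural killer gene complex and the Dectin-2 cluster on chromosome 6, 8 were tested and 0 passed the threshold of edgeR (1 with DESeq2), with 6 at an unadjusted p under 0.05, 1 higher (Clec1b) and 5 lower, all of the Ly49 family, against 7.17% of all tested genes higher and 5.27% lower. The median log2 fold change of the 8 was -0.76, and 3 of the 8 were positive. Ly49 genes encode receptors for MHC class I. Klra10 stood at 18.4 to 27.6 CPM in control hearts and at 13.5, 6.73 and 12.7 CPM in transferred hearts (log2 fold change -0.98, edgeR adjusted p = 0.132). Klra6 and Klra3 had log2 fold changes of -1.17 and -0.76 (edgeR adjusted p = 0.218 and 0.329). Counts of Klra10, Klra6 and Klra3 were fractional in 6, 5 and 5 of 7 hearts, and those of Klra8 and Klra9, the remaining lower genes, in 7 of 7. Which member of this family of near-identical genes the counts belong to is thus uncertain, and the 5 lower genes may not be 5 separate changes. Both Ncr1 and Klrb1c, genes of natural killer cells, were at 0 counts in these hearts.

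Clec1b, the platelet receptor CLEC-2, lies beside Clec9a and was chosen here after its values were seen. It stood at 0.535, 1.51, 2.88 and 0.379 CPM in control hearts and at 14.3, 9.08 and 0.395 CPM in transferred hearts. Transferred hearts 1 and 2 were above every control heart and transferred heart 3 was within their range (log2 fold change 2.52, SE 1.05, edgeR adjusted p = 0.398). Clec2d overlapped between groups, at 23.9 to 51.3 CPM in control hearts and 20.2, 71.7 and 52.1 CPM in transferred hearts.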
